A study of Mus musculus with 21 samples.

Results

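Aminoacyl-tRNA synthetases join each amino acid to its own transfer RNA (tRNA) and so supply every codon that a ribosome reads. Separate nuclear genes, named with a final 2, encode most of the enzymes that serve protein synthesis inside mitochondria, while Gars and Kars each give rise to both a cytosolic and a mitochondrial enzyme. Plasma cells (PCs) secrete antibody at a high rate, which draws on this charging step, and many synthetase genes are known targets of ATF4, the transcription factor of the amino acid response.

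RNA was measured in IgA+ PCs of the small intestinal lamina propria, sorted on CD138 and IgA, with 1 library per mouse from 21 C57BL/6 mice. The 37 synthetase genes were chosen by name: protein-coding genes with 10 or more counts in total whose symbol is a single letter followed by ars, with or without an ending 1, 2, a or b, together with Eprs. All 37 genes of that name pattern passed the biotype and count criteria, of 53801 genes in the table and 20256 genes tested, and 20 were taken as cytosolic and 17, with names ending in 2, as mitochondrial. Control mice carried Arntl fl/fl without Cre (Mb1Cre-/-) and were taken at ZT0 (n = 6) or ZT12 (n = 6), where ZT is zeitgeber time, the hours since lights on. Knockout mice carried Arntl fl/fl and Mb1Cre+/-, in which Cre is expressed from the Mb1 (Cd79a) locus throughout the B cell lineage, and were taken at ZT0 (n = 4) or ZT12 (n = 5). Both genotypes carried the floxed Arntl alleles. The ages were not given in the sources used here.

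Libraries held from 14471018 to 22785835 counts. Arntl, which encodes the clock factor BMAL1 and is the targeted gene, was measured over its whole gene model. Its lowest, median and highest level were 6.83, 7.92 and 8.36 CPM (counts per 1e+06 counts, TMM-scaled) in control mice at ZT0 and 4.00, 4.49 and 5.56 CPM in those at ZT12. Knockout mice at ZT0 had 4.51, 4.08, 6.47 and 4.42 CPM, below every control mouse of that time, and those at ZT12 had 3.39, 4.93, 3.97, 4.06 and 3.11 CPM. The genotype field of most knockout libraries names the control genotype, and the groups used here follow the sample titles. Cd79a ranged from 386 to 586 CPM over the control mice and from 163 to 276 CPM over the knockout mice, with no overlap.

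A pair of features set some libraries apart. Knockout ZT0 replicate 3 held both the female transcript Xist, at 428 CPM, and the Y-linked transcript Ddx3y, at 20.7 CPM, and had an immunoglobulin share of 59.4% of counts where the other 3 libraries of its group lay between 53.6% and 53.7%. Knockout ZT12 replicate 5 also held both, at 344 CPM of Xist and 2.23 CPM of Ddx3y, where Ddx3y lay between 0 and 0.145 CPM in the remaining libraries of high Xist. Without that library 3 synthetases (Cars2, Sars and Yars) were called in control mice in place of 4, and 0 in the other comparisons. All groups mixed the sexes, with Xist above 100 CPM in 3 of 6 and 3 of 6 control mice and in 2 of 4 and 2 of 5 knockout mice at ZT0 and ZT12, and with the Xist level as a covariate the 4 calls in control mice remained. In control mice at ZT0 those of high Xist (replicates 1, 2 and 3) lay below the others for Cars2, Yars and Qars. They held 14.8, 15.7 and 17.6 CPM of Cars2, against 22.6, 19.8 and 20.6 CPM in replicates 4, 5 and 6. For Qars the values were 52.4, 53.0 and 47.9 CPM, against 62.2, 60.4 and 58.6 CPM. Sars overlapped at ZT0, and all 4 genes overlapped between the sexes at ZT12. A sex difference that varies with time of day was not tested. Immunoglobulin genes took 59.1% to 63.6% of the counts in control ZT12 replicates 2, 4 and 5 and 51.5% to 55.7% in all remaining libraries except knockout ZT0 replicate 3. The share was 4.56 percentage points higher in control mice at ZT12 than at ZT0 (exact two-sided permutation p = 0.00216, n = 6 and 6), and in knockout mice it was 0.451 points lower at ZT12 by the mean (-0.451, exact two-sided permutation p = 0.881, n = 4 and 5). Knockout ZT0 replicate 3 set that direction: without it the share was 1.00 point higher at ZT12, with no overlap between 53.57% to 53.69% at ZT0 and 53.73% to 55.71% at ZT12 (exact two-sided permutation p = 0.125, n = 3 and 5). The 8 plasma cell markers summed to 281773 to 593591 CPM, of which Igha gave 235061 to 517996 CPM, and none was at 0 in any library. Their median log2 fold change at ZT12 was 0.17 in control and -0.04 in knockout mice, with 5 and 3 of 8 above 0. None was called. At an unadjusted p below 0.05 by edgeR, 3 were higher and 1 lower in control mice, and 0 and 1 in knockout mice. The 10 epithelial markers summed to 55.0 to 783 CPM, with Epcam the most abundant by its median (47.8 to 130 CPM) and Krt8 the one of highest single value (0.837 to 233 CPM). Of these markers 4 were at 0 in some libraries, and the sum was highest in control ZT12 replicate 5 at 783 CPM and knockout ZT12 replicate 5 at 472 CPM. In both genotypes all 10 had a fitted log2 fold change above 0 at ZT12, with a median of 2.42 in control and 2.28 in knockout mice, and none was called (5 of 10 had an unadjusted p below 0.05 by edgeR in control mice, and 0 in knockout mice). Their mean sum was higher at ZT12 by 149 CPM in control mice (p = 0.134 by an exact two-sided permutation of the labels, n = 6 and 6) and by 98.3 CPM in knockout mice (p = 0.325 by the same exact test, n = 4 and 5). A single library carried most of each difference, which was 40.1 CPM without control ZT12 replicate 5 and 23.7 CPM without knockout ZT12 replicate 5. T cell markers summed to 10.8 to 28.3 CPM, myeloid markers to 16.6 to 73.6 CPM and markers of other B cells to 12.6 to 29.4 CPM, and no marker of any list was at 0 in every library. Their median log2 fold changes at ZT12 in control and knockout mice were -0.49 and -0.09 (T cell), 0.13 and 0.40 (myeloid) and -0.30 and -0.49 (other B cells). Values above 0 were found for 1 and 3 of 6 T cell markers, 4 and 6 of 6 myeloid markers and 1 and 1 of 7 other B cell markers. None of these markers was called. In bulk libraries, fewer cells of a type and less RNA per cell cannot be told apart.

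Per length of gene model, cytosolic synthetases were the more abundant class. The median over 20 cytosolic genes was 12.2 CPM per kb and the median over 17 mitochondrial genes was 2.22 CPM per kb, each gene taken as its mean over the 21 mice. Nars, which charges asparagine tRNA, had the highest level at 75.4 ± 11.2 CPM per kb (SD, n = 21), followed by the valine enzyme Vars at 57.6 ± 3.17 CPM per kb and the methionine enzyme Mars at 30.7 ± 3.80 CPM per kb. The ranges of Nars, from 57.3 to 96.4 CPM per kb, and Vars, from 51.2 to 65.6 CPM per kb, overlapped across mice. From the fifth rank, Sars at 20.1 CPM per kb, down to Eprs at 5.05 CPM per kb, the levels formed a graded series in which neighbours in rank overlapped. These ranks depend on the length of the gene model. Eprs, with a model of 18102 bases, had a mean of 91.4 CPM, against 15.6 CPM for Farsb, with 2620 bases.

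The exception among mitochondrial genes was Lars2, the mitochondrial leucine enzyme, at 14.8 ± 2.74 CPM per kb (SD, n = 21), which stood ninth of the 37 genes. It took 38.0% to 57.0% of all counts of mitochondrial synthetases, against 17.6% to 22.5% of cytosolic synthetase counts for Vars. Lars2 was above its cytosolic counterpart Lars in 12 of the 21 mice and below it in 9. In each of the other 17 cytosolic and mitochondrial pairs charging the same amino acid, the cytosolic gene was the higher per kb in all 21 mice. The ratio ranged from 2.50 for Cars over Cars2 to 112 for Nars over Nars2, so Nars held the highest level per kb of the family while Nars2 was ranked 35 of 37, at 0.673 CPM per kb. The ratios also depend on model length: before division by length the means were 198 CPM for Nars and 4.69 CPM for Nars2. Their gene models had 2632 and 6967 bases. The lowest gene was Pars2, the mitochondrial proline enzyme, at 0.392 ± 0.161 CPM per kb (SD, n = 21).

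**Figure D1:**
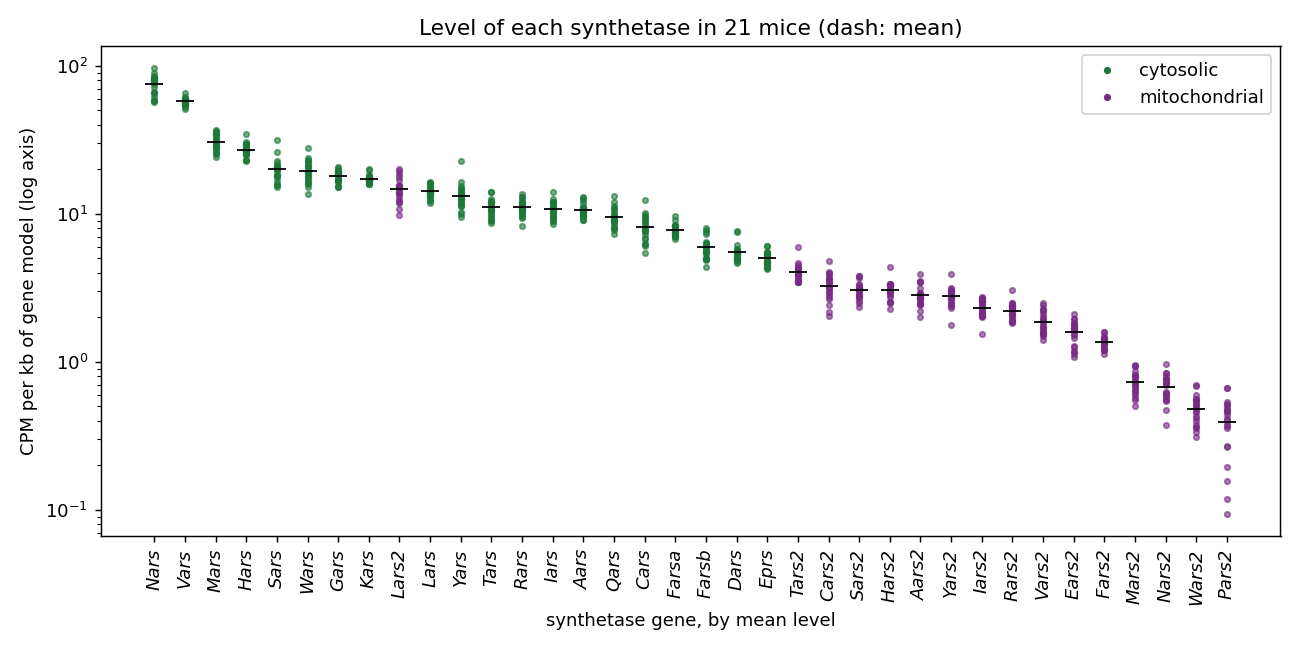
Level of 36 of the 37 synthetase genes in CPM per kb of gene model on a log axis, with 1 point per mouse (21 mice) and a dash at the mean; green marks cytosolic and purple mitochondrial genes. Lars2 is the only mitochondrial gene above 5.05 CPM per kb by its mean, the level of the cytosolic gene lowest per kb, Eprs, whose gene model is long.

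In control mice, 4 synthetases differed between the times of day, and all 4 were higher at ZT12: Cars2, Yars, Sars and Qars. They were 3 of 20 cytosolic and 1 of 17 mitochondrial genes, together 4 of 37, beside 1.73% of all 20256 genes called in either direction and 0.948% called higher (edgeR quasi-likelihood test over all genes, adjusted p below 0.05). No synthetase was called lower, where 0.78% of all genes were. The calls lay close to the threshold for the 3 cytosolic genes and were lost in several alternatives, given with each gene or with the processing. With the replicate block the call was lost for Yars, Sars and Qars, at adjusted p of 0.0570, 0.0602 and 0.0586 by edgeR. Their log2 fold changes in that fit were 0.47, 0.43 and 0.35. The count was 0 without control ZT0 replicate 2, 1 (Cars2) without control ZT0 replicate 1, 3, 5 or 6 or control ZT12 replicate 2, 3 or 4, and 2 (Cars2 and Yars) without knockout ZT12 replicate 1, 3 or 4.

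Cars2 (ENSMUSG00000056228, chr8:11513977-11550783), the mitochondrial cysteine enzyme, had the lowest p of the family. Its level was lowest at 14.8, median 18.7 and highest 22.6 CPM at ZT0, against 23.1, 26.6 and 34.7 CPM at ZT12. The groups did not overlap, which held for 1 of 37 synthetases and for 0.745% of all genes in that direction. The log2 fold change was 0.58 ± 0.11 (SE), with adjusted p = 0.0131 by edgeR. The 3 control ZT12 libraries of high immunoglobulin share held 28.6, 34.7 and 26.1 CPM and the other 3 held 23.1, 27.0 and 26.3 CPM, so both sets lay above all ZT0 mice. Without the libraries above 59% immunoglobulin the log2 fold change was 0.46 and adjusted p = 0.161 by edgeR.

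Yars, the tyrosine enzyme (ENSMUSG00000028811, chr4:129189760-129219607), had a lowest, median and highest level of 56.9, 64.1 and 75.1 CPM at ZT0, against 72.1, 85.3 and 136 CPM at ZT12. The groups overlapped, with 4 of 6 ZT12 mice above every ZT0 mouse, and the mouse at 136 CPM, replicate 2, was the one of highest immunoglobulin share. The log2 fold change was 0.50 ± 0.12 (SE), with adjusted p = 0.0408 by edgeR. It was 0.35 without control ZT12 replicate 2 and 0.30, with adjusted p = 0.383 by edgeR, without all libraries above 59% immunoglobulin.

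Sars (ENSMUSG00000068739, chr3:108424865-108445209) charges serine tRNA and also the tRNA of selenocysteine. Its lowest, median and highest level were 78.5, 85.5 and 103 CPM at ZT0, against 94.8, 111 and 163 CPM at ZT12. Again 4 of 6 ZT12 mice lay above every ZT0 mouse, and replicate 2 was the highest. The log2 fold change was 0.44 ± 0.11 (SE), with adjusted p = 0.0426 by edgeR, and without the libraries above 59% immunoglobulin it was 0.30, with adjusted p = 0.306.

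Qars (ENSMUSG00000032604, chr9:108507706-108515941), the glutamine enzyme, belongs to the multi-synthetase complex and has no mitochondrial counterpart, since mitochondria make glutaminyl-tRNA by amidation. It stood at 47.9, 55.8 and 62.2 CPM (lowest, median, highest) at ZT0 and at 59.7, 71.1 and 86.8 CPM at ZT12. Replicate 1 was the single ZT12 mouse within the ZT0 range. The log2 fold change was 0.36 ± 0.09 (SE), with adjusted p = 0.0479 by edgeR, and without the libraries above 59% immunoglobulin it was 0.27, with adjusted p = 0.417. With the immunoglobulin share as a covariate none of the 4 genes was called, at adjusted p from 0.323 to 0.655 by edgeR, and no gene of the 20256 was. The log2 fold changes in that fit were 0.22 for Yars, 0.22 for Sars, 0.46 for Cars2 and 0.28 for Qars. In control mice the share of every ZT12 library lay above that of every ZT0 library (highest 53.3452% at ZT0, lowest 53.3455% at ZT12). Share and time of day were thus tied, and the covariate fit cannot fully separate them. The fits without libraries above 59% immunoglobulin left out control ZT12 replicates 2, 4 and 5 and knockout ZT0 replicate 3. Those fits rested on fewer mice. The part of immunoglobulin share in these differences was not tested beyond these fits. With the epithelial marker level as a covariate, adjusted p of the 4 genes ran from 0.0673 to 0.156 by edgeR, and the log2 fold changes were 0.52 for Cars2, 0.50 for Yars, 0.51 for Sars and 0.34 for Qars.

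**Figure D2:**
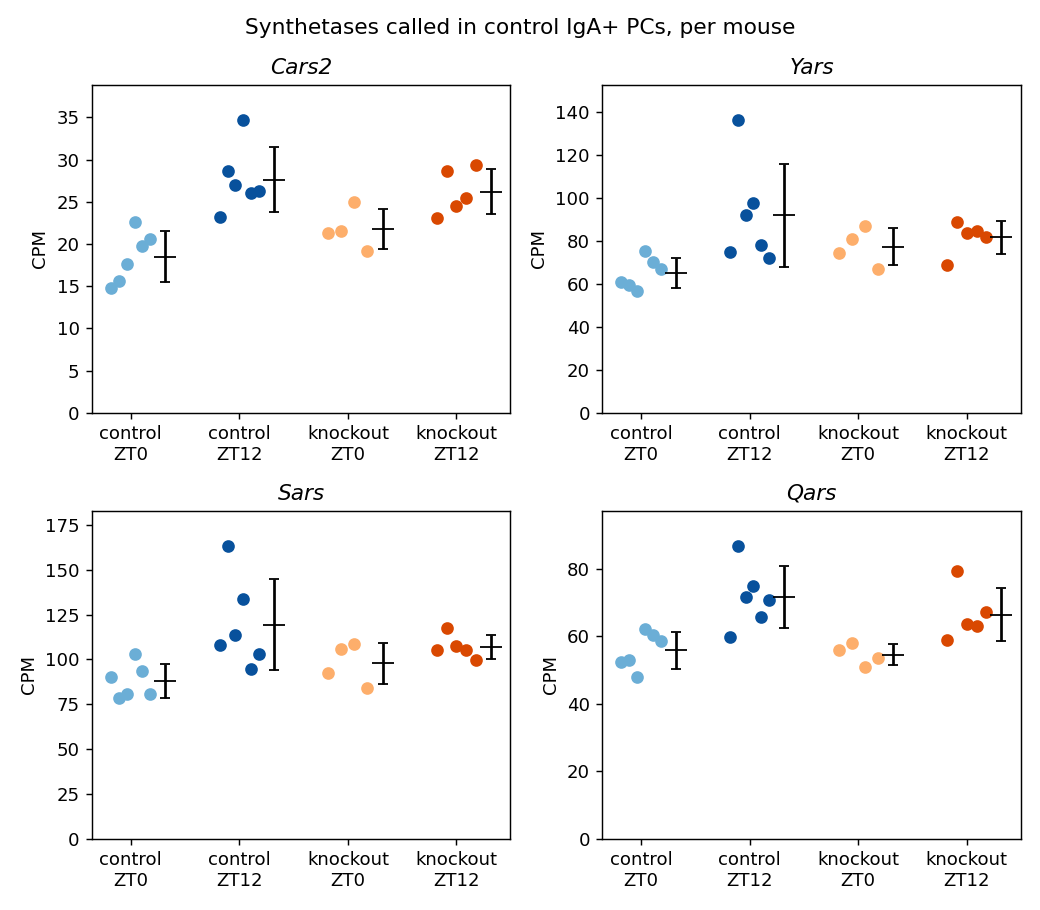
CPM of Cars2, Yars, Sars and Qars with 1 point per mouse in the 4 groups; the black dash and bar beside each group are mean and SD. Cars2 is the single gene of the 4 whose control groups do not overlap, at 14.8 to 22.6 CPM and 23.1 to 34.7 CPM.

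**Figure D3:**
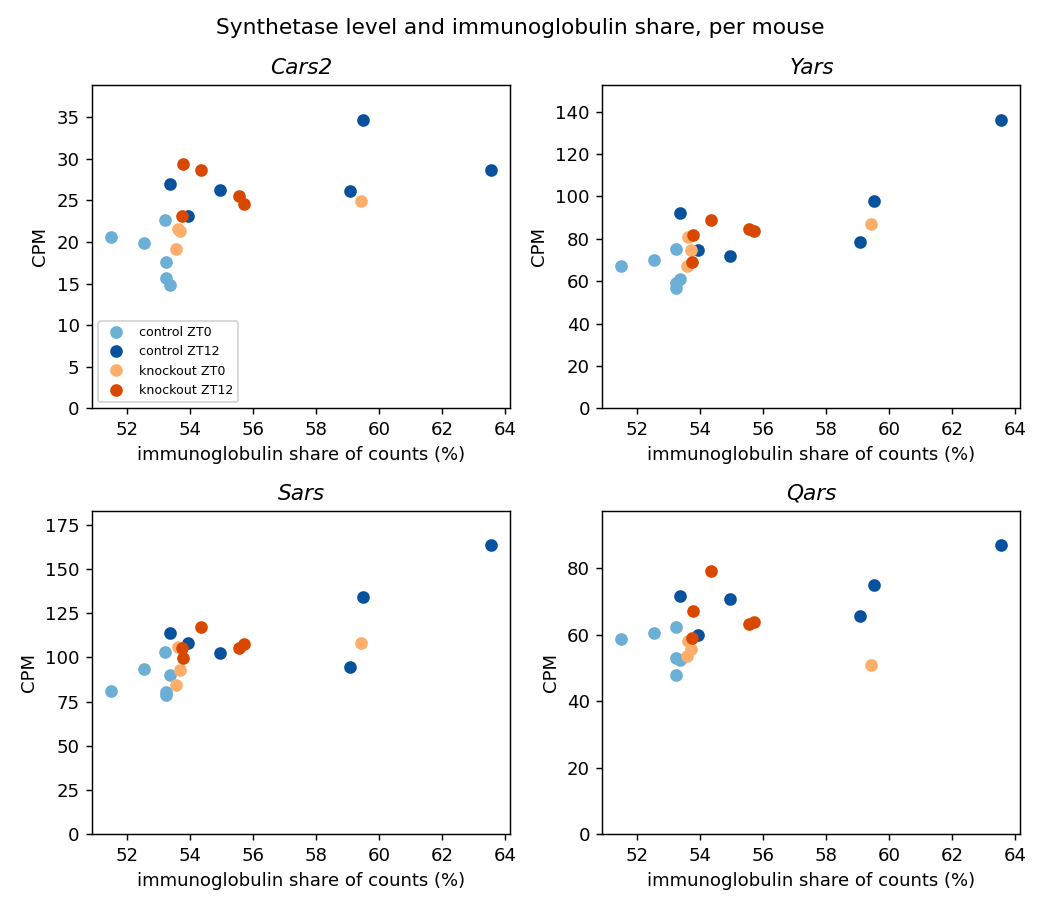
CPM of the same 4 genes against the immunoglobulin share of each library in percent, 1 point per mouse, coloured by group. The 3 control ZT12 mice at 59.1% to 63.6% include the highest control value of each gene.

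The promoters of Yars, Sars, Qars and Cars2 and of a pair of reference genes, Aars and Tars, are printed to show the letters searched. Aars and Tars were picked as 2 of the 3 synthetases that hold the response element core, so the difference between the printed sets follows from that choice. Each run is the 250 bases before the RefSeq start on GRCm38.p6, read 5′ to 3′ on the strand of the gene, and lower case marks bases outside any match. Capitals mark the E-box CACGTG, bound by BMAL1 and CLOCK among others, and the core of the C/EBP-ATF response element, TGATGNAA or its reverse complement.
Yars (chr4:129189653-129189902, plus strand): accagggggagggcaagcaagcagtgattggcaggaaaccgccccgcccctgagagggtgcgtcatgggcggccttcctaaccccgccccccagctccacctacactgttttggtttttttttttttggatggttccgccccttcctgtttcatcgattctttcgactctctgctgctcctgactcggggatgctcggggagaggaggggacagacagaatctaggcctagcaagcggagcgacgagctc
Sars (chr3:108445260-108445509, minus strand): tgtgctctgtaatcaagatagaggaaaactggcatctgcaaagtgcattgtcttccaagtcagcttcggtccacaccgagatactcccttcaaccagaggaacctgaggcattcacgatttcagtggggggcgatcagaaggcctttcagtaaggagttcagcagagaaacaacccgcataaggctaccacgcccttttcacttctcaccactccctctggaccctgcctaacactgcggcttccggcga
Qars (chr9:108507755-108508004, plus strand): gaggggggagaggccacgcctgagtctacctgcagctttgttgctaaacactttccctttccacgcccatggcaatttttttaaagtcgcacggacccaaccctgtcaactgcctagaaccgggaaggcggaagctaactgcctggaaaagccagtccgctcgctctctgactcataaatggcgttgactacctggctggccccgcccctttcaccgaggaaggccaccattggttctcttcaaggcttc
Cars2 (chr8:11550772-11551021, minus strand): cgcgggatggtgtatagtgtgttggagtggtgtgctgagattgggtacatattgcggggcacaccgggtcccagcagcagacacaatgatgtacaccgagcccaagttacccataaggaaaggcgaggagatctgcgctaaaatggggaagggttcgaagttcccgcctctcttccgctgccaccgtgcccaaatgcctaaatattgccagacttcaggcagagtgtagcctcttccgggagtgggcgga
Aars (chr8:111033592-111033841, plus strand): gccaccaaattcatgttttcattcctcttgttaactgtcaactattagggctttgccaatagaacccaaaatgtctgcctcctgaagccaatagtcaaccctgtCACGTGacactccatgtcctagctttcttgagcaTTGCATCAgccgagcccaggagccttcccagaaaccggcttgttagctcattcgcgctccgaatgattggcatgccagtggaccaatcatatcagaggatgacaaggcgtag
Tars (chr15:11399659-11399908, minus strand): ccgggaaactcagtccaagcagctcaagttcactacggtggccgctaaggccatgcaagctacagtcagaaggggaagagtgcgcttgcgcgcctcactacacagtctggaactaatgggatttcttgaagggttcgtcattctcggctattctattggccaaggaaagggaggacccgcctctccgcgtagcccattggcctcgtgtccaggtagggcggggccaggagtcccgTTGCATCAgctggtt
None of these letters, nor the D-box TTATGNAA, lay in the windows of the 4 genes that rose. Both strands were read, and 26 of the 37 synthetases had a promoter in the table. The E-box was in 3 of 26 synthetase genes (Aars, Farsb and Iars) and in 6.02% of 32851 promoters. The response element core was in 3 of 26 (Aars, Gars and Tars) and in 3.45% of all promoters, and the D-box in 1 of 26 (Vars2) and in 3.07%. Every synthetase with an E-box or a response element core was cytosolic, and these matches are a description of letters in the windows.

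The remaining synthetases did not pass the test in control mice. At an unadjusted p below 0.05 there were 7 of 37, all higher at ZT12, beside 18.1% of all genes and 9.19% higher, so that share of the family was near the background in total. By library size alone, where the median of all genes was -0.20, there were 3 higher and 11 lower at that p and 9 of 37 had a fold change above 0 in place of 19, while 18 of 37 lay above the median of all genes under both scalings. Under TMM scaling, the 3 genes at unadjusted p below 0.05 beyond those called were Nars, Tars and Rars. The log2 fold change was 0.31 for Nars (adjusted p = 0.142), 0.27 for the threonine enzyme Tars (0.153) and 0.21 for the arginine enzyme Rars (0.204), all by edgeR. Nars had a lowest, median and highest level of 151, 168 and 215 CPM at ZT0, against 189, 217 and 254 CPM at ZT12, and the groups overlapped. DESeq2 called 6 of 37, adding Nars and Tars.

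The time of day differences of cytosolic and mitochondrial genes were then compared by class. The median log2 fold change of the 20 cytosolic genes was 0.06 and that of the 17 mitochondrial genes -0.06, beside 0.006 over all genes tested. A fold change above 0 was found for 14 of 20 cytosolic and 5 of 17 mitochondrial genes, beside 50.6% of all genes. The cytosolic median minus the mitochondrial was 0.12, and it was 0.07 without control ZT0 replicate 1 and 0.18 without control ZT0 replicate 4. Without the libraries above 59% immunoglobulin it was 0.18. With scaling by library size alone, which moved the median of all genes to -0.20, the medians were -0.16 and -0.28, so the sign of the cytosolic median depended on the scaling, while the cytosolic median stayed above that of all genes by 0.04. Summed, the cytosolic genes held 1437, 1533 and 1736 CPM (lowest, median, highest) at ZT0, against 1524, 1714 and 2000 CPM at ZT12, and the mitochondrial genes 311, 324 and 382 CPM and 293, 325 and 380 CPM. Both pairs of groups overlapped.

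Among the mitochondrial genes of lowest p after Cars2 were Vars2 and Nars2, which charge valine and asparagine tRNA. Vars2 had 8.65, 11.2 and 13.5 CPM (lowest, median, highest) at ZT0, against 7.62, 8.86 and 10.9 CPM at ZT12. Nars2 had 2.62, 4.17 and 5.07 CPM, then 3.83, 5.18 and 6.75 CPM. The median was lower at ZT12 for Vars2 and higher for Nars2. The groups overlapped in both genes, and adjusted p was 0.312 for Vars2 and 0.379 for Nars2 by edgeR. Gars and Kars, which serve both compartments, were not called. Gars had a log2 fold change of 0.05 ± 0.09 (SE), with 52.1, 54.1 and 60.8 CPM at ZT0, against 47.8, 58.6 and 65.1 CPM at ZT12. Kars had 0.006 ± 0.077 (SE), with 70.8, 75.5 and 88.5 CPM, then 70.9, 74.5 and 89.3 CPM.

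The 8 cytosolic enzymes of the multi-synthetase complex (Dars, Eprs, Iars, Kars, Lars, Mars, Qars and Rars), a grouping chosen after the values were seen, had a median log2 fold change of 0.01 in control mice and the other 12 cytosolic genes 0.12. Qars was the single complex member called.

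**Figure D4:**
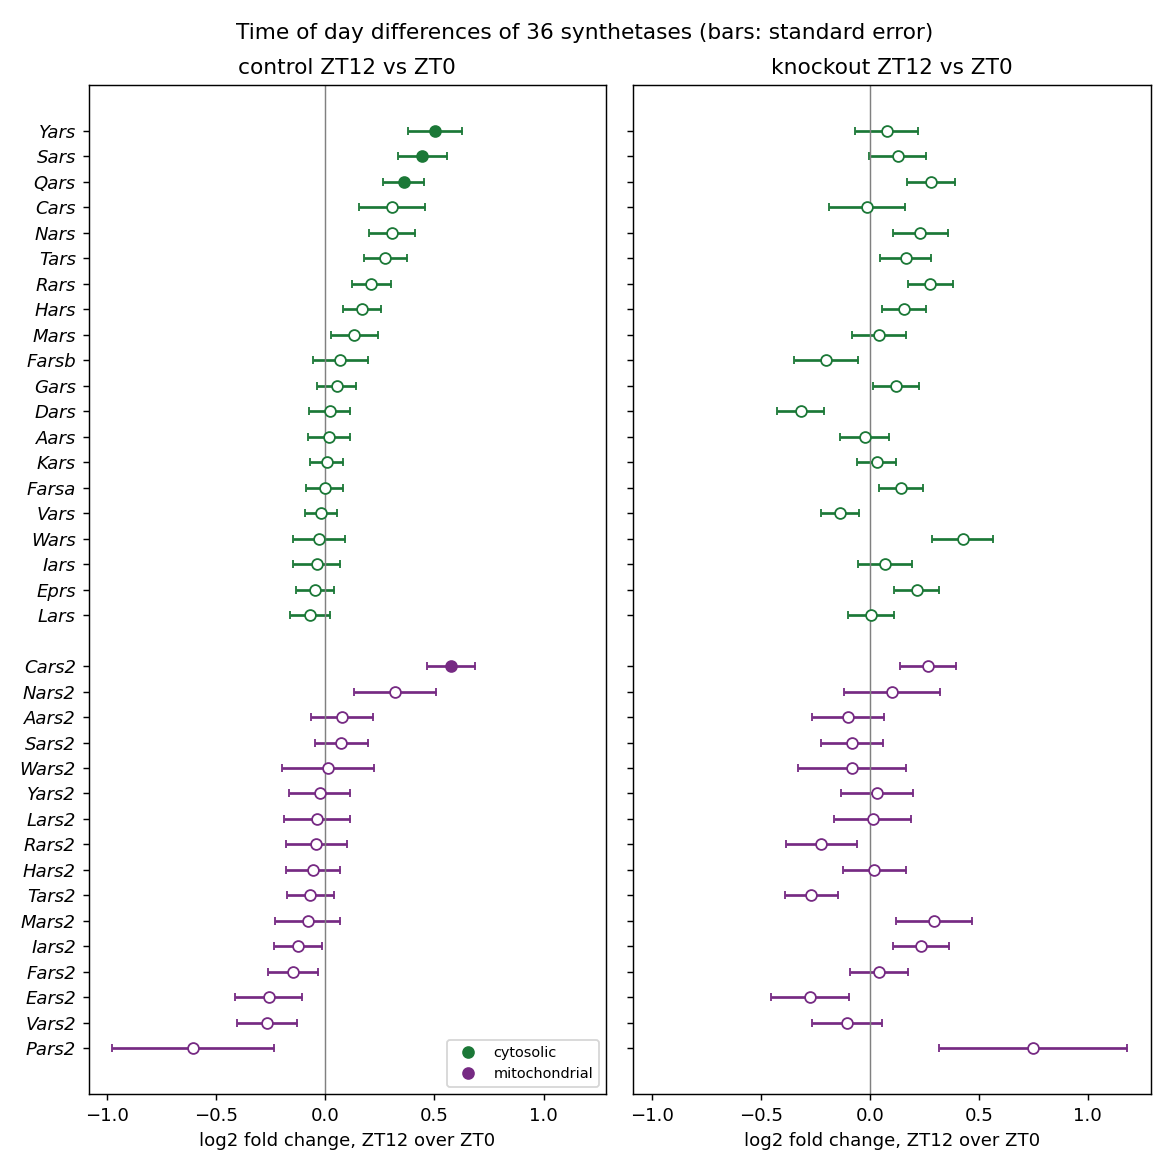
Log2 fold change of ZT12 over ZT0 for 36 of the 37 synthetases in control (left) and knockout mice (right), with bars of 1 SE; green marks cytosolic and purple mitochondrial genes, and filled points have adjusted p below 0.05. The filled points are Yars, Sars, Qars and Cars2 in control mice, and there are none in knockout mice.

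In knockout mice 0 of 37 synthetases were called between ZT12 and ZT0, as was 0% of all 20256 genes. At an unadjusted p below 0.05 there were 7 of 37 by edgeR, beside 8.01% of all genes, and DESeq2 called 0 of 37. Eprs, Wars, Qars, Rars and Cars2 were on the higher side, beside 3.91% of all genes, and Tars2 and Dars on the lower side, beside 4.09%. Wars, the tryptophan enzyme, which interferon also induces, had the lowest p, with values of 54.7, 65.9, 46.6 and 59.8 CPM at ZT0, against 96.3, 62.4, 78.5, 81.8 and 62.5 CPM at ZT12. The groups overlapped by the second ZT0 mouse alone, and the log2 fold change was 0.43 ± 0.14 (SE), adjusted p = 0.541 by edgeR. Without knockout ZT0 replicate 3 it was 0.34, adjusted p = 0.916.

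Dars, the aspartate enzyme, stood at 33.6, 24.4, 33.0 and 25.1 CPM in knockout mice at ZT0 and at 21.8, 25.3, 22.3, 22.9 and 24.2 CPM at ZT12. Replicates 1 and 3 were the high ZT0 mice, and the log2 fold change was -0.32 ± 0.11 (SE), adjusted p = 0.546 by edgeR. Without replicate 3 it was -0.25, adjusted p = 0.916.

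The 4 genes called in control mice were not called in knockout mice. Qars had 55.8, 58.1, 50.9 and 53.5 CPM at ZT0, against 58.9, 79.2, 63.6, 63.1 and 67.2 CPM at ZT12. These groups did not overlap, which held on the higher side for Qars and Pars2 (2 of 37, beside 1.22% of all genes) and on the lower side for Vars (1 of 37, beside 1.41%). Cars2 had 21.3, 21.6, 24.9 and 19.2 CPM at ZT0, against 23.1, 28.6, 24.5, 25.5 and 29.3 CPM at ZT12. Yars had 74.6, 80.9, 86.8 and 67.0 CPM, against 68.9, 89.0, 83.9, 84.5 and 82.0 CPM. Sars had 92.6, 106, 108 and 84.3 CPM, against 105, 117, 107, 105 and 99.6 CPM. In all 3 genes some ZT12 mice lay within the ZT0 range, and knockout ZT0 replicate 3 was the highest ZT0 mouse. Log2 fold changes were 0.28 for Qars, 0.27 for Cars2, 0.08 for Yars and 0.13 for Sars, with adjusted p of 0.599, 0.615, 0.926 and 0.829 by edgeR. Single libraries moved the small values: Yars had 0.002 without knockout ZT0 replicate 4, 0.14 without ZT0 replicate 3, 0.13 without ZT12 replicate 1 and 0.05 without ZT12 replicate 2, and Sars had 0.05 without ZT0 replicate 4.

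Whether the time of day difference itself differed between genotypes was tested as the interaction, with 0 of 37 synthetases called and 0% of all genes. At an unadjusted p below 0.05 there were 5 of 37 (Yars, Wars, Dars, Iars2 and Pars2), beside 10.8% of all genes, and without knockout ZT0 replicate 3 there were 0 of the 37, beside 5.27% of all genes. The log2 interaction was -0.42 for Yars (adjusted p = 0.451 by edgeR), 0.46 for Wars, -0.34 for Dars and 1.36 for Pars2, and without that replicate -0.36, 0.37, -0.27 and 1.18. DESeq2 called 0 of 37. Without the libraries above 59% immunoglobulin the time of day log2 fold change of Yars was 0.30 in control and 0.14 in knockout mice. For the other genes called in control mice the interaction was -0.32 for Sars, -0.08 for Qars and -0.31 for Cars2, with adjusted p of 0.489, 0.884 and 0.494 by edgeR, so a difference between the genotypes in these genes was not detected. With the immunoglobulin share as a covariate the time of day log2 fold change of Qars was 0.28 in control and 0.29 in knockout mice. Without knockout ZT12 replicate 2 the knockout value of Qars was 0.21. The median log2 fold change between times in knockout mice was 0.10 over cytosolic and 0.01 over mitochondrial genes, beside 0.006 over all genes, and the fold change was above 0 for 15 of 20 and 9 of 17, beside 50.7% of all genes. The cytosolic minus the mitochondrial median in knockout mice was 0.09, and it was 0.04, 0.15 and 0.04 without ZT0 replicates 1, 2 and 4 and 0.05 without ZT12 replicate 2. With the epithelial marker level as a covariate it was 0.19.

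Between genotypes at the same time, 0 of 37 synthetases were called at ZT0, where 0.00987% of all genes were, and 0 of 37 at ZT12, where 0.0148% were, and DESeq2 called 0 of 37 at both times. The unadjusted p was below 0.05 for 2 of 37 at ZT0 (Dars and Farsb), beside 4.9% of all genes, and for 2 of 37 at ZT12 (Eprs and Pars2), beside 8.83%. Dars stood at 20.1, 21.6 and 26.7 CPM (lowest, median, highest) in control mice at ZT0, a log2 fold change of 0.38 ± 0.10 (SE) in knockout mice with adjusted p = 0.926 by edgeR, and 0.31 without knockout ZT0 replicate 3. Farsb, the beta subunit of the phenylalanine enzyme, had 11.5, 14.5 and 16.8 CPM (lowest, median, highest) in control mice at ZT0 and 16.0, 19.7, 20.9 and 15.6 CPM in knockout mice. Eprs, the joint glutamate and proline enzyme, had 76.3, 86.3 and 100.3 CPM in control mice at ZT12 and 95.4, 96.1, 95.3, 109.7 and 109.0 CPM in knockout mice, with a log2 fold change of 0.21 ± 0.09 (SE) and adjusted p = 0.562 by edgeR. Pars2 had the lowest level of the family, and control ZT12 replicate 5 had 4 counts, or 0.257 CPM of its unscaled total (95% Wilson interval 0.10 to 0.66 CPM, counting error only). Its values at ZT12 were lowest 0.291, median 0.794 and highest 1.50 CPM in control mice and 1.42, 1.46, 1.34, 2.06 and 2.05 CPM in knockout mice. All of these groups overlapped.

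**Figure D5:**
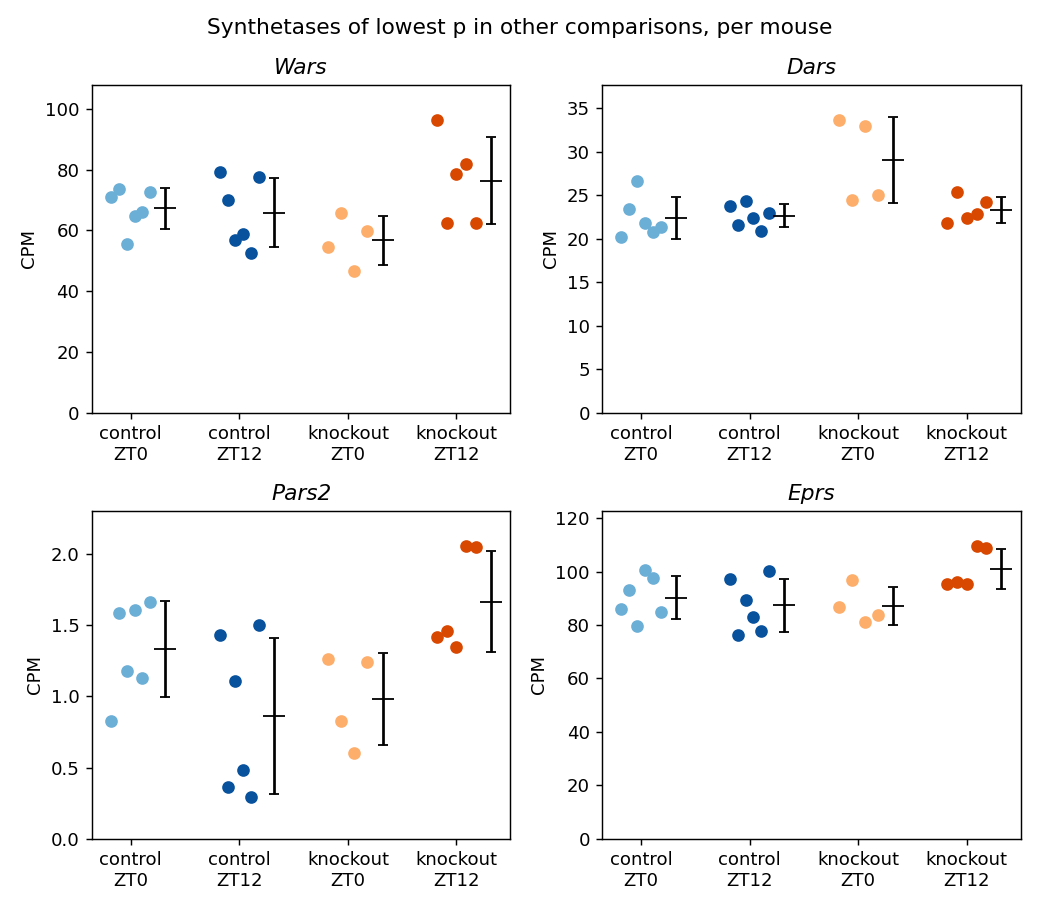
CPM of Wars, Dars, Pars2 and Eprs with 1 point per mouse in the 4 groups; the black dash and bar are mean and SD. Wars is highest in knockout mice at ZT12, from 62.4 to 96.3 CPM, and the ranges overlap with both control groups.

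Other genes of the pathway gave 1 call. Of 25 measured genes of the amino acid response (ATF4) list, 1 rose in control mice at ZT12 and 0 fell: Shmt2, a mitochondrial serine enzyme, with lowest, median and highest of 80.9, 91.3 and 118 CPM at ZT0, against 110, 120 and 170 CPM at ZT12 and a log2 fold change of 0.44 (adjusted p = 0.0469 by edgeR), where 1.73% of all genes were called. The highest ZT12 mice were replicates 2 and 4, both of high immunoglobulin share, at 170 and 140 CPM for Shmt2 and 629 and 596 CPM for Atf4, against 331 to 487 CPM of Atf4 in the other 4. Replicate 5, the third of high immunoglobulin share, had 111 CPM of Shmt2, the second lowest of the group, and 410 CPM of Atf4. Without the libraries above 59% immunoglobulin Shmt2 had 0.30 (adjusted p = 0.408 by edgeR), with that share as a covariate 0.21 (adjusted p = 0.663), and it was not called in 16 of the 21 fits that left out 1 library. The list's median log2 fold change was 0.27, beside 0.006 over all genes, and it was 0.23 and 0.15 in those fits of the immunoglobulin share, with 0 of 25 called in both. By library size alone it was 0.07, which is 0.27 above the median of all genes under that scaling, as it was under TMM. With the gene length trend removed it was 0.15, which is 0.16 above the median of all genes in that fit, with 1 of 25 called. The part of immunoglobulin share in this list was not tested beyond these fits, and in control mice share and time of day were tied. Atf4 itself had a log2 fold change of 0.33 (adjusted p = 0.19) and Asns, asparagine synthetase, 0.21 (adjusted p = 0.559). None of the 25 was called in knockout mice, where the median was 0.18. That median was 0.11, 0.25 and 0.12 without knockout ZT0 replicates 1, 2 and 4. With the epithelial marker level as a covariate it was 0.28. Of 7 measured genes of a list of eIF2alpha kinase and phosphatase genes and Impact, 0 were called in control mice. The amino acid sensor kinase Eif2ak4 (GCN2) had a log2 fold change of -0.44, adjusted p = 0.0607 by edgeR. A list of complex scaffolds and other synthetase-related genes held 10 measured genes: Aimp1, Aimp2, Eef1e1, Aarsd1, Tarsl2, Dtd1, Dtd2, Prorsd1, Xpot and Trnau1ap. Of these 0 were called, with the scaffold Aimp1 at 0.39, adjusted p = 0.0915 by edgeR. Of 15 mitochondrial translation factors 0 were called, with the elongation factor Tsfm at 0.49, adjusted p = 0.107 by edgeR. The 4 measured genes of the mitochondrial glutamine and initiator tRNA routes, and the 2 of the selenocysteine tRNA route, had 0 calls. Of 37 synthetases, 14 shared exon bases with another gene in GENCODE M21, among them Cars2 with Naxd (422 bases) and Yars with C77080 (30 bases), so reads in the overlap cannot be told apart, the strand setting of the counting being not given in the sources used here.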

How the data were processed

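Per the labels, each library was poly-A selected total RNA of IgA+ PCs from the small intestine of 1 mouse, sequenced as paired reads. The authors deposited unnormalized read counts for each gene in 1 table over the 21 libraries, and their processing notes name DESeq2. The aligner, counter and strand setting are not given in the sources used here. The coordinates of 33 of 37 synthetases equal those of GENCODE M21 (GRCm38), and the deposited gene length equals the union of its exons for 33.

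Groups follow the sample titles. Genes with at least 10 counts in total were tested with edgeR 4.0.16 (R 4.3.3, limma 3.58.1; TMM scaling, quasi-likelihood test, robust dispersion) in 1 fit over the 4 groups, with 5 contrasts and p-values adjusted over 20256 genes by Benjamini-Hochberg at 0.05. CPM are TMM-scaled, and levels between genes are CPM per kb of deposited gene length. Exact permutation tests served single values. DESeq2 1.42.0 with default independent filtering, other scalings, filters, covariates, a replicate block and leaving out each library were alternatives; the epithelial covariate and the fits without libraries above 59% immunoglobulin or 400 CPM of epithelial markers, all alternatives for the amino acid response list, and leaving out mice in the exact tests, were chosen after seeing the data. The members and lists were chosen with earlier results of these data known. Group values (each mouse, or the lowest, median and highest in groups of 6) are given for called members, the 4 cytosolic and 4 mitochondrial members of smallest p in control mice, the 2 of smallest p in each other comparison, and Gars and Kars; 1 member is counted among the 37 but its values are not reported here. Tests were also run on simulated counts, with larger changes than those of the called synthetases and no differences in immunoglobulin share or sex. The 46 library pairs within groups differed by more than sampling noise (chi-square per gene 26.5 to 216). Promoters are from RefSeq (GRCm38.p6); motif shares are over all 32851 promoters, and 26 of 37 genes matched.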

Additional observations from a re-analysis of the deposited data

Results flagged for a closer look

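In 72 groups of values of 4 to 6 mice, 2 held a mouse far from the others, where chance gives about 1 in 20. The summed level of the mitochondrial synthetases in control ZT0 replicate 4 was 382 CPM, with the next mouse at 325 CPM and the lowest at 311 CPM; Lars2 in that mouse was 218 CPM. The immunoglobulin share of knockout ZT0 replicate 3 was 59.4%, with the other 3 mice of that group at 53.6% to 53.7%.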

How the results depend on the processing

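The count of 4 synthetases called in control mice fell to 0 with scaling by library size alone, at a threshold of 0.01, in a fit of the control groups alone, with the immunoglobulin share or the epithelial marker level as a covariate, and without the libraries above 59% immunoglobulin; the cause was not tested. Over all genes those settings called 446, 14, 38, 0, 33 and 9. In the fit of the control groups alone the log2 fold changes were as in the fit of all groups (Cars2 0.58, Yars 0.50, Sars 0.44, Qars 0.36), and with library size scaling, which moved the median of all genes to -0.20, they were 0.36, 0.26, 0.21 and 0.14. The count was 1 with the replicate block and 3 to 6 under the remaining alternatives, with 6 by DESeq2, which called 1052 genes, and it was 0 to 4 when 1 library was left out: 0 without control ZT0 replicate 2, 1 (Cars2) without control ZT0 replicates 1, 3, 5 or 6 or control ZT12 replicates 2, 3 or 4, and 2 (Cars2 and Yars) without knockout ZT12 replicates 1, 3 or 4. Library size scaling split the calls into 48 higher and 398 lower, where TMM gave 192 and 158.

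Whether replicate numbers pair the mice was not settled by their correlations. Correlations of deviations of same-numbered mice ran from -0.248 to 0.237 in 6 control pairs and from -0.189 to 0.212 in 4 knockout pairs. In 3 of 6 control and 0 of 4 knockout pairs the mouse correlated best with its own number. With the replicate block 1 synthetase (Cars2) and 183 genes were called in control mice.

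The other 4 comparisons had 0 synthetases called under every alternative run, with leave-one-out included. The cytosolic minus mitochondrial median of the interaction was -0.11 and 0.0265 without control ZT12 replicate 2; its other leave-one-out values lay between -0.14 and -0.03, and it was 0.02 with the gene length trend removed. Between the times of day in control mice, which is not among those comparisons, DESeq2 also called Nars (adjusted p = 0.0324). Depth limits the rarest genes, such as Pars2.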
